A study of Mus musculus with 23 samples.

Results

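The genes described here are the ligands and receptors of the classical axon guidance families, 70 of the 54347 genes in the table. They were chosen by symbol: semaphorins (Sema, 20 genes), plexins (Plxn, 9), neuropilins (Nrp, 2), ephrins (Efna and Efnb, 8), Eph receptors (Epha and Ephb, 14), Slit (3) and Robo (4), netrins (Ntn and Ntng, 6) and Unc5 receptors (4). Slitrk genes were left out, and by this reading 37 members are ligands and 33 are receptors. The rule reads symbols only and no measured value, but it was set with earlier results of these data known.

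Guidance molecules are known for steering growing nerve fibres and blood vessels, and the same families act in epithelia, where they set cell boundaries, adhesion and migration. Secreted class 3 semaphorins bind neuropilins, which pair with plexins to signal, whereas the other semaphorins are membrane-bound and mostly bind plexins directly. Ephrins sit on the cell surface and bind Eph receptor tyrosine kinases on neighbouring cells, Slit proteins bind Robo receptors, and netrins bind Dcc, neogenin and Unc5 receptors. In developing teeth these cues are best known for controlling when sensory nerve fibres enter the pulp, with Sema3A as a repellent.

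Expression was measured by RNA sequencing of cells from the labial cervical loop, the epithelial fold at the growing end of the lower incisor, in mice at postnatal day 2. Every mouse carried a Sox2-GFP reporter, in which the promoter of Sox2 itself drives green fluorescent protein, so all groups share this allele. Flow sorting split the dissected cells by that fluorescence: the Sox2-positive fraction is labelled as dental epithelial stem cells, and the Sox2-negative fraction is the rest of the region. Smart-seq2 libraries were made in 2 batches on different days from different mice.

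Batch A held 6 Sox2-negative and 6 Sox2-positive libraries, and batch B held 4 and 7, which makes 4 groups and 23 libraries. The labels' "genotype" entry names the sort, not an allele. The labels do not say whether libraries of 1 batch came from separate mice, so p-values measure only the spread between these libraries, which may be technical. Day and mice differ between the batches together and cannot be told apart. In sorted bulk libraries, fewer cells of a type and less RNA per cell cannot be told apart either.

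Library totals ranged from 2.31 to 9.54 (in units of 1e6 estimated counts), and 3 counts corresponded to 0.314 to 1.3 CPM (counts per 1e6, scaled by TMM). The marker lists were chosen with earlier results of these data known, so they describe the sort and cannot test it. Over both batches all 10 epithelial markers were higher in Sox2-positive libraries, and all 10 mesenchymal, 10 endothelial, 10 leukocyte and 7 erythroid markers were lower. Of 5 tested neuron markers 2 were higher and 1 lower. Of 7 tested pericyte and smooth muscle markers 1 was higher (Tagln) and 5 lower, and all 4 tested ameloblast markers were lower. Of all genes tested, 24.9% were higher and 32.5% lower. Summed erythroid markers in Sox2-negative libraries measured 985 to 1188 CPM in batch A and 53611 to 62038 CPM in batch B. Summed mesenchymal markers measured 1365 to 1935 CPM in batch A Sox2-positive libraries and 712 to 824 CPM in batch B ones, against 11543 to 14797 CPM in Sox2-negative libraries of batch B. Of 10 glial and neural crest markers, 9 were higher in Sox2-positive libraries, and their sum was 1455 to 1786 CPM in batch A but 97.3 to 139 CPM in batch B. Batch B libraries numbered 1 and 2 have been seen to differ from the higher numbers in both populations, and for members given library by library, a call that was lost without those 4 libraries is given with its adjusted p beside the result. Only libraries 3 and 4 then remain in the batch B Sox2-negative group, so an effect of the libraries left out and the smaller group cannot be told apart.

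Sox2-positive and Sox2-negative cells differed in most guidance genes, in both directions. Over both batches, 22 of the 65 members that could be tested were higher in Sox2-positive cells, 26 were lower and 17 did not pass (edgeR quasi-likelihood test, Benjamini-Hochberg adjusted p under 0.05 over 17190 genes). Of all genes tested, 57.5% were called, 24.9% higher and 32.5% lower. The median log2 fold change (Sox2-positive over Sox2-negative) was -0.07 over the members and -0.12 over all genes. Epha8, Epha10, Slit1, Robo3 and Ntng2 were too low to test, with no library above 14.1 CPM.

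Some families lay mainly on a single side and the others were mixed, where 24.9% of all genes tested were higher and 32.5% lower. Ephrin-A ligands (5 of 5) and class 3 semaphorins (5 of 7, with 1 lower) were higher in Sox2-positive cells, while both neuropilins, both tested Slit genes, 2 of 3 Robo and 3 of 4 Unc5 receptors were lower. Ligands were called 14 higher and 13 lower of 35, and receptors 8 higher and 13 lower of 30. The other families were mixed: Sema4 to Sema7 had 2 higher and 7 lower of 13, plexins 3 and 3 of 9, ephrin-B 1 and 2 of 3, EphA receptors 2 and 2 of 7, EphB receptors 3 and 1 of 5, and netrins 1 and 1 of 5.

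In batch A alone, 23 members were higher and 22 lower (background 49.5% of genes called, 21.8% higher and 27.6% lower), with a median of 0.21 against -0.13 over all genes. In batch B, 18 were higher and 26 lower (background 42.6%, of which 17.5% higher and 25% lower), with a median of -0.21 against -0.11. The list medians were the same with members listed at 0 in a group set at the bound of their fold. Of the 65, 35 were called in both batches with the same sign (16 higher and 19 lower), 1 with opposite signs, 9 in batch A only, 8 in batch B only and 12 in neither.

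**Figure D1:**
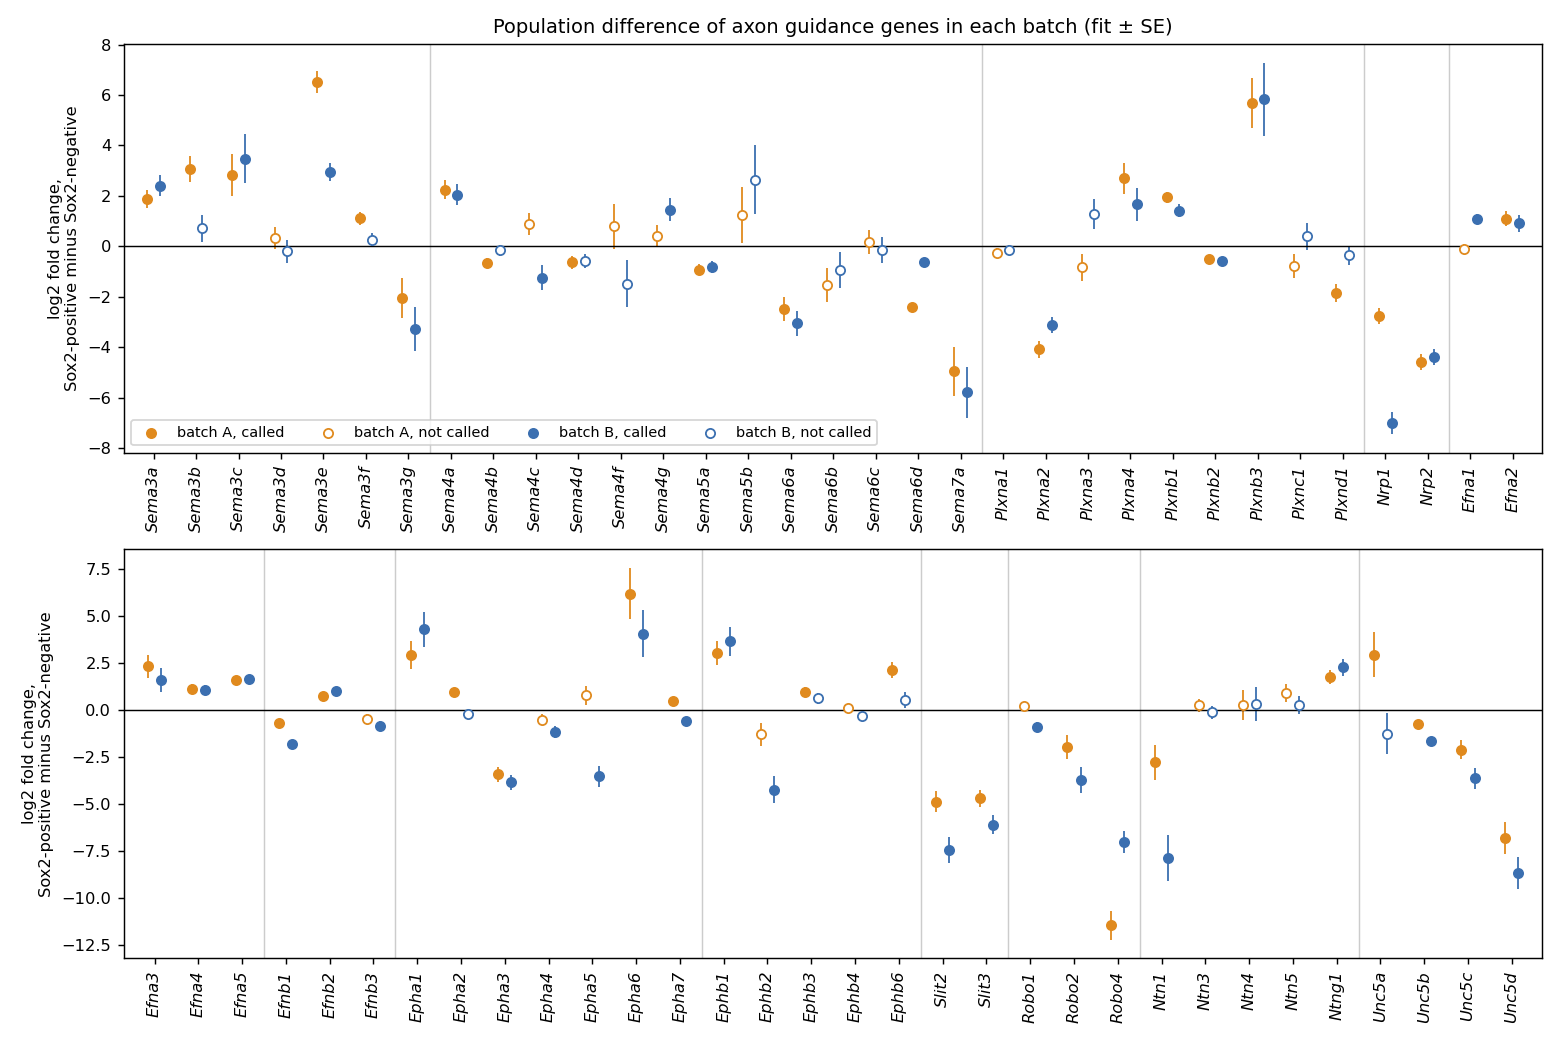
Fitted log2 fold change, Sox2-positive minus Sox2-negative, of the 65 tested members in each batch, with bars of 1 standard error and filled points for calls. Efna2 to Efna5 lie above 0, and Nrp1, Nrp2, Slit2, Slit3, Robo4 and Unc5d lie far below 0 in both batches. Points of Plxnb3 (batch B), Epha6 and Robo4 (batch A) rest on a group with no counts and are not bounds.

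**Figure D2:**
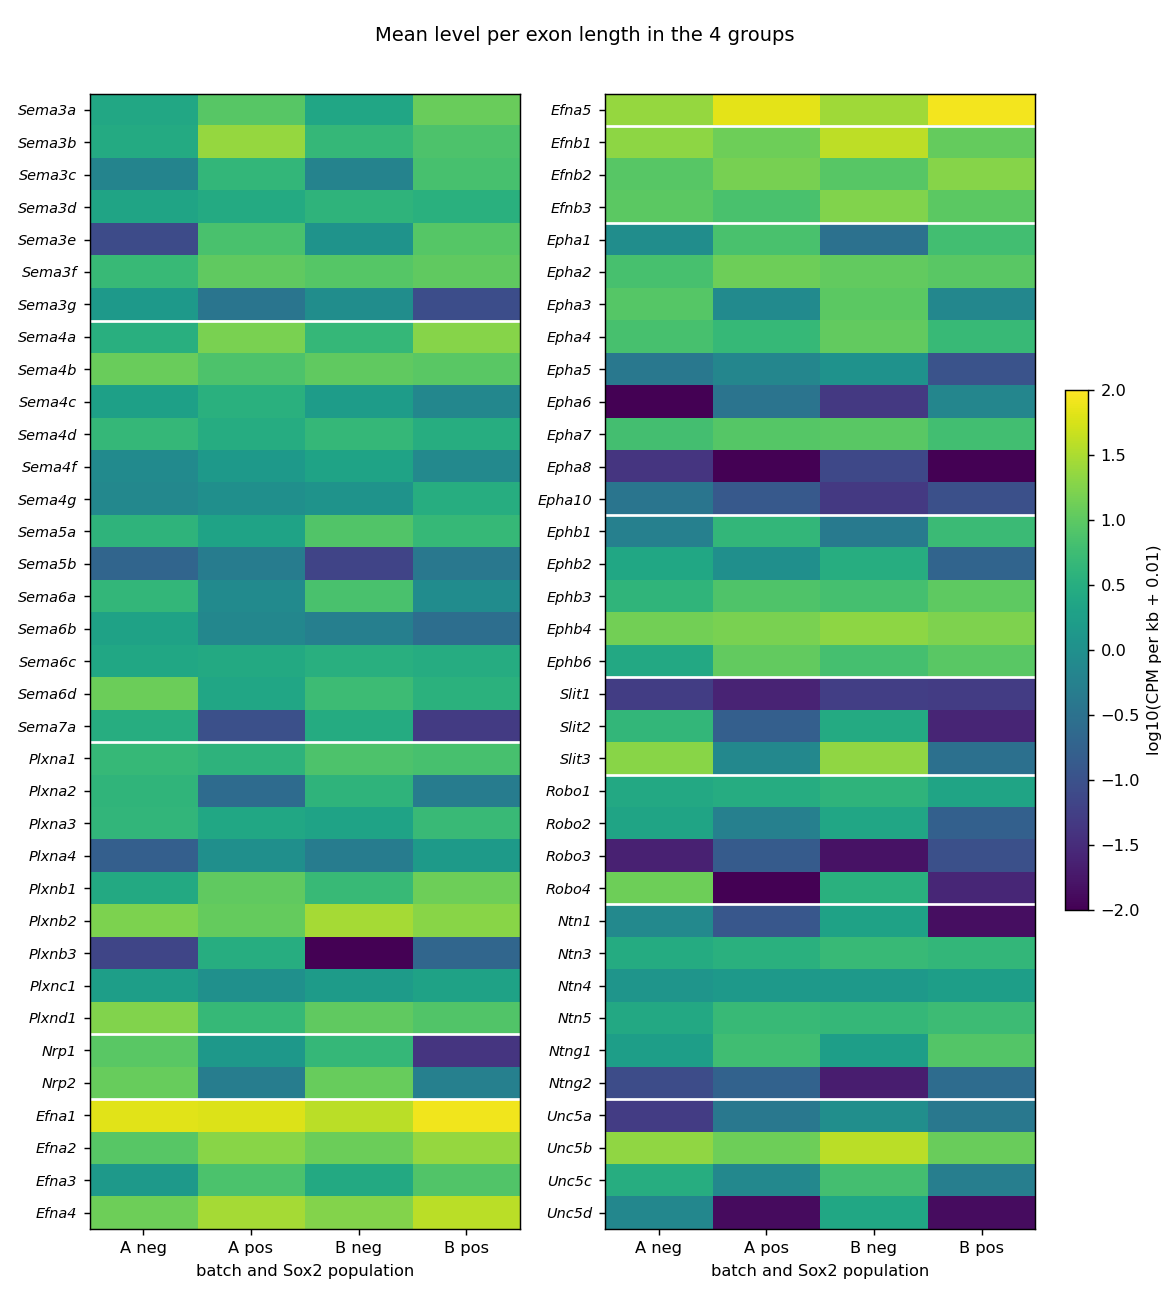
Mean level per kilobase of exon of all 70 members (CPM per kb, on a log10 scale after adding 0.01) in the 4 groups, ordered by family. Efna1 and Efna5 have the brightest cells, and the Sox2-positive columns are dark for Slit2, Robo4, Ntn1 and Unc5d.

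Class 3 semaphorins were summed per exon length to compare the family across groups. The sum was 14.6 ± 2.99 CPM per kb (SD, n = 6) in Sox2-negative and 57.9 ± 5.48 in Sox2-positive libraries of batch A, and 22.3 ± 2.73 (n = 4) and 49.1 ± 6.68 (n = 7) in batch B. Its ranges did not overlap between populations in either batch, and Sema3b, Sema3a, Sema3f, Sema3e and Sema3c supplied most of it in Sox2-positive cells.

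Sema3a, the ligand that repels sensory fibres through neuropilin-1, ranged from 9.14 to 94.9 CPM (median 24.1) in batch A Sox2-negative libraries and from 88.2 to 172 CPM (median 127) in Sox2-positive ones. In batch B the Sox2-negative libraries had 25.6, 29.1, 37.3 and 34.7 CPM, and the Sox2-positive ones 136 to 189 CPM (median 174). The groups touched in batch A through 1 Sox2-negative library (number 2) and were apart in batch B. The log2 fold change was 1.86 ± 0.36 (SE) in batch A and 2.41 ± 0.42 in batch B (edgeR adjusted p 1.46e-04 and 4.87e-05), and 2.47 in batch A without that library.

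Sema3c, a ligand of both neuropilins, was near its floor in most Sox2-negative libraries: 0 to 24 CPM (median 0.238) in batch A, and 1.31, 7.5, 8.32 and 0.34 CPM in batch B. Levels in the Sox2-positive population were 16.4 to 51 CPM (median 30.1) and 37.2 to 63.1 CPM (median 48.8). The populations were apart in batch B and overlapped in batch A through Sox2-negative library 3. The log2 fold change of 2.83 ± 0.83 in batch A became 5.80 without that library, and 3.13 over both batches became 4.32. In batch B it was 3.48 ± 0.98 (edgeR adjusted p 0.00545), and 3.53 with an adjusted p of 0.0862 without libraries 1 and 2 of both populations (range over alternatives 1.95e-05 to 0.0862).

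Sema3e, the ligand of plexin-D1, had 0 to 2.07 CPM (median 0.447) in batch A Sox2-negative libraries, and 8.8, 7.95, 5.54 and 19.5 CPM in batch B ones. Sox2-positive libraries had 53.6 to 88.1 CPM (median 60.7) in batch A and 68.5 to 99.2 CPM (median 77.3) in batch B. It was apart between populations in both batches and also apart between the batches in Sox2-negative cells. Log2 fold changes were 6.52 ± 0.42 and 2.94 ± 0.36 (edgeR adjusted p 1.20e-12 and 2.84e-07), and without Sox2-negative library 1 the first was 7.21.

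Sema3b, a neuropilin-2 ligand and per exon length the most abundant class 3 semaphorin in batch A Sox2-positive cells (23.5 CPM per kb, against 7.55 in batch B), differed between populations in batch A. There it had 1.57 to 28.7 CPM (median 10.8) in Sox2-negative and 76.2 to 157 CPM (median 114) in Sox2-positive libraries, with no overlap and a log2 fold change of 3.08 ± 0.52 (edgeR adjusted p 2.33e-05). In batch B, Sox2-negative libraries had 13.4, 6.75, 53.6 and 14.1 CPM and Sox2-positive ones 18.2 to 57.9 CPM (median 40.6), which overlapped (log2 fold change 0.71 ± 0.53, edgeR adjusted p 0.297).

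Sema3f, another neuropilin-2 ligand and the most abundant of the family per length in Sox2-negative cells, had medians of 23.6 and 57.5 CPM in batch A and of 44.4 and 57.2 CPM in batch B. It was higher in Sox2-positive cells in batch A (log2 fold change 1.12 ± 0.26, edgeR adjusted p 9.11e-04) and not called in batch B (0.24 ± 0.28). Sema3d showed no call (0.08 ± 0.32 over both batches). Sema3g, at no more than 14.5 CPM in any library, was the exception in direction, at -2.60 ± 0.59 over both batches (edgeR adjusted p 4.64e-04).

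Semaphorins of classes 4 to 7, the membrane-bound ones, differed less as a sum: 51.9 ± 8.99 against 41.3 ± 5.21 CPM per kb in batch A and 52.3 ± 4.22 against 48.9 ± 4.88 in batch B. Sema4a, the most abundant of them per length in Sox2-positive cells, had 1.85 to 42.5 CPM (median 12.9) and 67.2 to 96.4 CPM (median 86.9) in batch A. In batch B the Sox2-negative libraries had 32.5, 28.7, 21 and 16.5 CPM against 71.4 to 133 CPM (median 111). The populations were apart in both batches, with log2 fold changes of 2.25 ± 0.37 and 2.05 ± 0.42 (edgeR adjusted p 1.97e-05 and 2.94e-04).

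Sema7a, a lipid-anchored ligand of plexin-C1, went the other way, with 0.537 to 23.1 CPM (median 9.53) and 0 to 0.896 CPM (median 0) in batch A. In batch B the Sox2-negative libraries had 13.7, 13.8, 2.45 and 7.48 CPM and the Sox2-positive ones 0 to 0.545 CPM. No Sox2-positive library reached 1 CPM, and the populations were apart in batch B. Log2 fold changes were -4.96 ± 0.97 and -5.80 ± 1.02, or -5.59 without batch A Sox2-positive library 2 and -6.60 without batch B Sox2-positive library 6.

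Sema6d, a plexin-A1 ligand, was lower in Sox2-positive cells of both batches. Batch A had 84.1 to 175 CPM (median 138) against 21.9 to 27.6 CPM (median 24.6), and batch B had 50.3, 74, 56.6 and 54.9 CPM against 23.5 to 45.9 CPM (median 38.3). The gap was wide in batch A (log2 fold change -2.42 ± 0.19, edgeR adjusted p 5.22e-11) and narrow in batch B (-0.64 ± 0.19, edgeR adjusted p 0.00831). The batch B call was lost without Sox2-negative library 2 (-0.45, adjusted p 0.0862) and without batch B libraries 1 and 2 of both populations (-0.63, adjusted p 0.0686; range over alternatives 0.00181 to 0.0862).

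Sema4b, at 10.4 to 12 CPM per kb as group means one of the more abundant of these classes in Sox2-negative cells, had medians of 64.8 and 41.4 CPM in batch A and 55.6 and 52 CPM in batch B. Its log2 fold change was -0.66 ± 0.21 in batch A (edgeR adjusted p 0.0106), and -0.42 with an adjusted p of 0.0787 without Sox2-negative library 6 (range over alternatives 0.00377 to 0.0787). Over both batches (-0.43 ± 0.16, edgeR adjusted p 0.0236) the call was lost without any 1 of 9 libraries (adjusted p 0.0502 to 0.117) and without batch B libraries 1 and 2 (-0.33, adjusted p 0.173; range over alternatives 0.0137 to 0.173). Sema5a, which carries thrombospondin repeats (-0.88 ± 0.15), and Sema6a, a ligand of plexins A2 and A4 (-2.77 ± 0.34), were lower in both batches. Sema4d (-0.61 ± 0.19), the plexin-B1 ligand, and Sema6b (-1.28 ± 0.49) were lower with the batches combined, and Sema4g was higher (0.90 ± 0.33). By batch, Sema4d was called in A only, Sema4g in B only and Sema6b in neither.

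Neuropilins, the receptors that bind class 3 semaphorins, were low in Sox2-positive cells. Their summed level per length was 21.3 ± 4.60 against 1.86 ± 0.695 CPM per kb in batch A and 16.2 ± 3.40 against 0.58 ± 0.225 in batch B, with no overlap in either. Nrp2 had 87.4 to 188 CPM (median 141) in batch A Sox2-negative libraries and 115, 148, 156 and 132 CPM in batch B ones, against 1.41 to 9.32 CPM (median 6.01) and 3.87 to 11.4 CPM (median 6.48) in Sox2-positive libraries. The log2 fold change was -4.59 ± 0.32 in batch A and -4.40 ± 0.31 in batch B (edgeR adjusted p 6.95e-12 and 9.49e-12).

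Nrp1, which also binds Vegfa (chr8:128358604-128503363, plus strand, GRCm38), had 68.4 to 153 CPM (median 82.1) in batch A Sox2-negative libraries and 19.7, 37.7, 66.7 and 53.9 CPM in batch B ones. Sox2-positive libraries had 5.98 to 22.4 CPM (median 12.5) in batch A but 0 to 0.545 CPM (median 0.283) in batch B. All 4 groups were apart from their neighbours within a batch and within a population. The log2 fold change was -2.78 ± 0.32 in batch A and -7.02 ± 0.43 in batch B (edgeR adjusted p 6.09e-08 and 5.94e-13).

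Plexins, the signalling receptors of semaphorins, split by gene. Plxna2, a receptor of class 6 semaphorins and partner of neuropilins, had 39 to 112 CPM (median 64.1) against 2.13 to 7.45 CPM (median 3.78) in batch A. In batch B it had 42, 69.8, 117 and 43.8 CPM against 5.37 to 9.07 CPM (median 8.74). The populations were apart in both batches, at log2 fold changes of -4.09 ± 0.34 and -3.11 ± 0.32 (edgeR adjusted p 2.24e-10 and 1.50e-08).

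Plxna4, the related receptor of Sema3A and Sema6A, was higher in Sox2-positive cells at lower levels: 0 to 5.64 CPM (median 1.78) against 5.31 to 21.1 CPM (median 14.6) in batch A. Batch B had 6.78, 6.3, 3.75 and 9.86 CPM against 13.3 to 26.7 CPM (median 21.9). Log2 fold changes were 2.70 ± 0.62 and 1.67 ± 0.66. The first was 3.31 without Sox2-negative library 6, and the batch B call (edgeR adjusted p 0.0418) was lost without any 1 of 7 batch B libraries (adjusted p 0.0524 to 0.0965). It was also lost without libraries 1 and 2 of both batch B populations (1.62, adjusted p 0.256), with the replicate block (1.67, 0.153) and with no filter (1.68, 0.0503), and the adjusted p ranged from 3.26e-04 to 0.256 over alternatives.

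Plxnb2 was the most abundant plexin per length, at 11.5 to 28.9 CPM per kb as group means, except in batch A Sox2-negative cells, where Plxnd1 was higher (17.5 against 16.1). Plxnb2 had medians of 122 and 90.4 CPM in batch A and 225 and 123 CPM in batch B. The populations were apart in batch A and overlapped in batch B. There, Sox2-positive libraries 1 and 2 had 191 and 223 CPM and libraries 3 to 7 had 113 to 141 CPM, against 208 to 234 CPM in Sox2-negative ones. Plxnb2 was lower in Sox2-positive cells by small amounts, -0.49 ± 0.15 and -0.59 ± 0.16 (edgeR adjusted p 0.0103 and 0.0046). The batch A call was lost without Sox2-negative library 6 (-0.36, adjusted p 0.0583) and with limma-voom (-0.47, 0.0614; range over alternatives 0.00461 to 0.0614), and the batch B call with the replicate block (-0.44, 0.0639; range 1.42e-04 to 0.0639). Plxnb1, the Sema4D receptor, was higher (1.69 ± 0.18 over both batches, edgeR adjusted p 6.20e-09). Plxnd1, the Sema3E receptor, was lower in batch A (-1.85 ± 0.37) and not called in batch B (-0.36 ± 0.38), and Plxna1, Plxna3 and Plxnc1 were not called in either.

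Plxnb3, a receptor of Sema5A, had 0 to 1.31 CPM (median 0.214) against 10.5 to 28.5 CPM (median 19.4) in batch A. In batch B it was at 0 in all 4 Sox2-negative libraries and had 0 to 5.83 CPM (median 0.848) in Sox2-positive ones, where library 3 stood above the rest. The batch A log2 fold change was 5.69 ± 1.00 (edgeR adjusted p 5.50e-05), and 6.56 without Sox2-negative library 4. In batch B the Sox2-positive mean was at least 2.89-fold higher, against a floor of 3 counts per library (edgeR adjusted p 0.0024). The fitted batch B log2 value is no bound, and moved from 5.83 to 4.61 without Sox2-positive library 3. Within Sox2-positive cells it was lower in batch B (log2 fold change -3.86 ± 0.82, edgeR adjusted p 0.00246; -5.09 without library 3). The 10 glial markers were all lower in batch B Sox2-positive cells too, with Sox10 at 134 to 229.6 CPM in batch A and 2.97 to 17 CPM in batch B; their part in the Plxnb3 difference was not tested.
The 250 bases before the Plxnb3 start are shown because no other member had as high a positive log2 fold change over both batches. Capitals mark SOX core letters (ACAAAG or ACAATG, on either strand), in RefSeq GRCm38.p6, chrX:73756853-73757102, plus strand. SOX core letters stood in 26.3% of the windows of members higher in Sox2-positive cells (5 of 19) and in 25.5% of all windows. They are letter matches and not measured binding sites.
Plxnb3: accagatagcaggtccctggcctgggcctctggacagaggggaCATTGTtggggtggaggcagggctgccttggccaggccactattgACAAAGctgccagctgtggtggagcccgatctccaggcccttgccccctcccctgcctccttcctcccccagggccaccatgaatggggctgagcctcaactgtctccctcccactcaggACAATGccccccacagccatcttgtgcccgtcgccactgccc

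**Figure D3:**
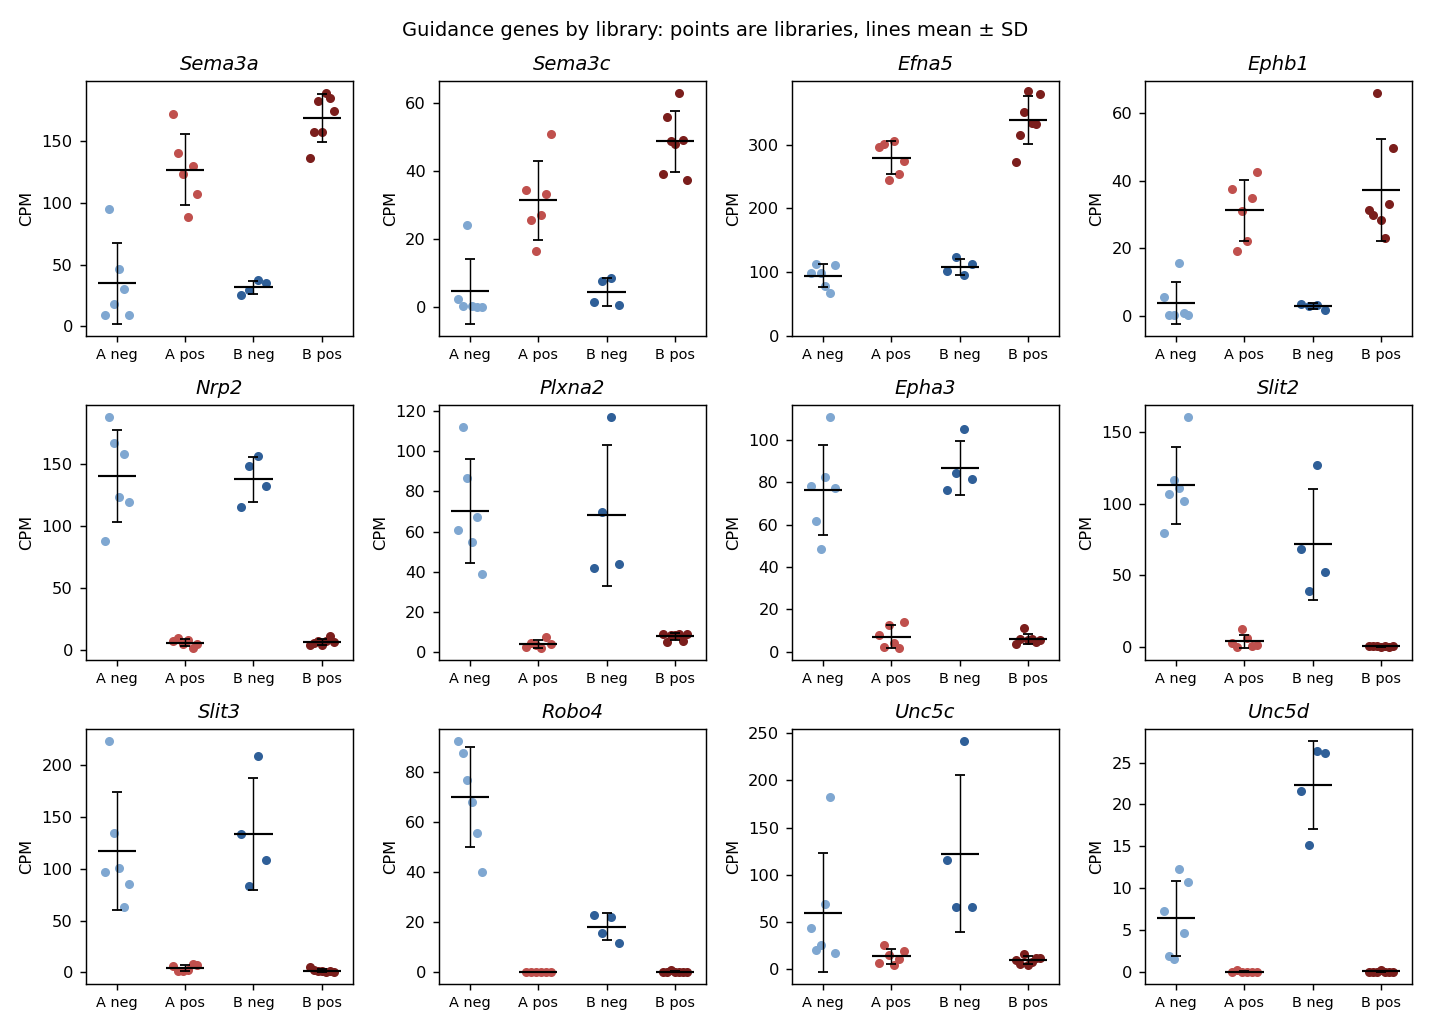
CPM of 12 guidance genes in each library of the 4 groups (A and B are batches, neg and pos the Sox2 populations), with mean and SD. Sema3a, Sema3c, Efna5 and Ephb1 are higher in Sox2-positive libraries of both batches, and the other 8 genes are lower.

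Ephrin-A ligands, which are anchored to the membrane by a lipid, were called higher in Sox2-positive cells over both batches in all 5 genes, with Efna1 the exception in batch A alone. Their summed level per length was 112 ± 20.2 against 186 ± 16.6 CPM per kb in batch A and 98.1 ± 11.1 against 235 ± 23.5 in batch B, and the populations did not overlap in either batch. Of the 12 families this sum was the highest in each of the 4 groups. Efna5, the most abundant of the family per length in Sox2-positive cells, had 66.4 to 112 CPM (median 97.8) against 245 to 306 CPM (median 286) in batch A. In batch B it had 101, 123, 95.6 and 112 CPM against 273 to 384 CPM (median 334). Log2 fold changes were 1.58 ± 0.13 and 1.65 ± 0.14 (edgeR adjusted p 8.40e-11 and 4.77e-10), with the populations apart in both batches.

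Efna1, which sat highest per length in Sox2-negative cells, differed between populations in batch B only: 65, 56, 69.3 and 87.7 CPM against 127 to 184 CPM (median 144), a log2 fold change of 1.09 ± 0.19 (edgeR adjusted p 3.97e-05). In batch A it had 95.7 to 149.9 CPM (median 113) against 73.9 to 156 CPM (median 106), which overlapped (-0.09 ± 0.17). The call over both batches (0.43 ± 0.17, edgeR adjusted p 0.0369) was lost without batch B Sox2-negative library 1, 2 or 3 (adjusted p 0.0508 to 0.0579), and was 0.27 with an adjusted p of 0.211 without libraries 1 and 2 of both batch B populations (range over alternatives 0.00319 to 0.211).

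Efna3 had 0 to 8.33 CPM (median 3.59) against 16 to 20.9 CPM (median 16.5) in batch A, and 8.32, 8.7, 5.71 and 3.4 CPM against 10.9 to 28.7 CPM (median 22.5) in batch B. The populations were apart in both batches, at log2 fold changes of 2.32 ± 0.60 and 1.61 ± 0.65. The batch B call (edgeR adjusted p 0.0488) was lost without any 1 of 10 libraries (adjusted p 0.0533 to 0.113), which were all 4 batch B Sox2-negative libraries, batch B Sox2-positive libraries 3 to 7 and batch A Sox2-positive library 4. It was also lost without libraries 1 and 2 of both batch B populations (2.38, adjusted p 0.0888), with the replicate block (1.31, 0.29) and with no filter (1.62, 0.0565), over a range of 8.78e-04 to 0.29. Efna4 (1.10 ± 0.17 over both batches) and Efna2 (1.01 ± 0.22) were higher in each batch.

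Efna1, Efna3 and Efna4 lie side by side on the minus strand of chromosome 3, within 66.3 kb. The 250 bases before the starts of Efna3 (chr3:89322940-89323189) and Efna4 (chr3:89338029-89338278) are shown because these neighbours were both higher in Sox2-positive cells of each batch, yet differ in base composition. They are from RefSeq GRCm38.p6 and read 5′ to 3′ on the minus strand; capitals mark GC boxes (GGGCGG) in Efna3 and SOX core letters (ACAAAG) in Efna4, each searched on both strands.
Efna3: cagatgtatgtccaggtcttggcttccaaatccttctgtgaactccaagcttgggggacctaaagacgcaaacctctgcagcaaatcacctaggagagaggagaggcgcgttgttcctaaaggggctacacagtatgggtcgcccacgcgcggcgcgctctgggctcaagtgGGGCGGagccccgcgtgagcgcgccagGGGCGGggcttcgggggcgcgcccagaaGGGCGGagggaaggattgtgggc
Efna4: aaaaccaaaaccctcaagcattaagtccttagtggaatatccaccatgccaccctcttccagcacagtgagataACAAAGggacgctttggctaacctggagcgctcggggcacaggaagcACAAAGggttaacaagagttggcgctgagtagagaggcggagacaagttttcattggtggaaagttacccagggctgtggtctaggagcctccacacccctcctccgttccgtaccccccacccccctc
Efna3 holds 19 CpG dinucleotides in this window and Efna4 holds 7. Over the 61 members with a RefSeq entry the median was 16 CpG, against 6 over 27025 promoters of the same length. GC boxes stood in 72.1% of member windows and 32.9% of all windows. SOX core letters stood in 16.4% of member windows, 26.3% of those of members higher in Sox2-positive cells (5 of 19), 4.5% of those of members lower (1 of 22), and 25.5% of all windows. These are letter matches and not measured binding sites.

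Ephrin-B ligands, which span the membrane and can signal backwards into their own cell, differed in direction. Efnb2 was higher in Sox2-positive cells, at 30.1 to 82.8 CPM (median 67.5) against 88 to 121 CPM (median 101) in batch A, and 62.3, 73.2, 58.4 and 58.8 CPM against 110.3 to 163 CPM (median 116) in batch B. The populations were apart in both, with log2 fold changes of 0.72 ± 0.18 and 1.02 ± 0.20 (edgeR adjusted p 0.00193 and 2.20e-04). Efnb1, on the X chromosome, was lower: 57.2 to 101 CPM (median 69.2) against 31.9 to 64.6 CPM (median 43.4) in batch A, and 131, 142, 139.9 and 139 CPM against 20.5 to 49.4 CPM (median 44.9) in batch B. The groups overlapped in batch A (log2 fold change -0.71 ± 0.21, edgeR adjusted p 0.00712) and were far apart in batch B (-1.80 ± 0.22, edgeR adjusted p 2.90e-07). Efnb3 was lower with the batches combined (-0.65 ± 0.18), and was called in batch B but not in batch A.

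EphA receptors, which mainly bind ephrin-A ligands, were led by different genes in the 2 populations. Epha1 had 0 to 6.98 CPM (median 3.97) against 19.9 to 37.3 CPM (median 26.5) in batch A. In batch B it was at 0 in 3 Sox2-negative libraries and at 4.8 CPM in library 2, against 14.5 to 31.2 CPM (median 23.8). The populations were apart in both batches. Log2 fold changes were 2.94 ± 0.75 and 4.30 ± 0.94 (edgeR adjusted p 0.00198 and 6.13e-04), the second 9.95 without Sox2-negative library 2, where it then rests on a group with no counts and is no bound. Epha1 exons overlap those of Zyx on the other strand, and without a known strand setting their reads cannot be told apart. The same limit holds for Plxna1, Plxna4, Plxnb1, Efna3, Efna4, Ephb1 and Ephb4. Sema4c, Epha6, Epha10, Ntn5, Unc5a and Unc5c also overlap exons of a gene on the other strand.

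Epha3, an ephrin-A5 receptor and the most abundant EphA gene per length in batch A Sox2-negative cells, had 48.3 to 111 CPM (median 77.9) against 1.61 to 13.9 CPM (median 5.89) in batch A. In batch B it had 76.4, 84.3, 105 and 81.4 CPM against 3.37 to 11.2 CPM (median 5.62). Its ligand Efna5 was thus higher, and Epha3 lower, in Sox2-positive cells, with no overlap of populations for either gene. Log2 fold changes of Epha3 were -3.43 ± 0.40 and -3.84 ± 0.40 (edgeR adjusted p 8.28e-08 and 1.71e-08).

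Epha2, known from epithelia and the most abundant EphA gene per length in Sox2-positive cells, had 19.6 to 42.2 CPM (median 32.8) against 53.6 to 70.3 CPM (median 62.1) in batch A, which were apart (log2 fold change 0.95 ± 0.18, edgeR adjusted p 1.05e-04). In batch B it had 47.7, 57.5, 50.2 and 48.8 CPM against 34.5 to 54.5 CPM (median 44.1), which overlapped (-0.21 ± 0.19). Epha7 was the only member called with opposite signs, at 0.48 ± 0.19 in batch A and -0.61 ± 0.20 in batch B. It had 36.6 to 78.8 CPM (median 64.4) against 62.4 to 121 CPM (median 81.3) in batch A, and 82.8, 95.6, 117 and 81.9 CPM against 53.5 to 80.4 CPM (median 57.4) in batch B. The batch A call (edgeR adjusted p 0.0321) was lost without Sox2-negative library 2 or 4 or Sox2-positive library 5 (adjusted p 0.0652 to 0.0835), and the batch B call (0.0138) without Sox2-negative library 2 or 3 (adjusted p 0.0544 to 0.112). The batch B call was also lost without libraries 1 and 2 of both populations there (-0.59, adjusted p 0.129) and with total-count scaling (-0.46, 0.0667), over a range of 0.00337 to 0.129. The batch A call was lost with limma-voom (0.50, 0.0613) and with batch A fitted alone (0.49, 0.0823), over a range of 0.0126 to 0.0835.

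Epha5 was not called in batch A (2.31 to 12.6 against 2.07 to 24.9 CPM, log2 fold change 0.78 ± 0.49). In batch B it had 22.2, 18.8, 20.9 and 11.7 CPM in Sox2-negative libraries against 0.92 to 2.15 CPM (median 1.63) in Sox2-positive ones, with no overlap (-3.54 ± 0.54, edgeR adjusted p 7.53e-06). Epha4 was lower with the batches combined (-0.82 ± 0.22), and was called in batch B but not in batch A. Epha6 was at 0 in all batch A Sox2-negative libraries and reached 4.74 CPM in Sox2-positive ones, a mean at least 2.4-fold higher against the floor.

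EphB receptors, which mainly bind ephrin-B ligands, were led in the population difference by Ephb1. It had 0.214 to 15.7 CPM (median 0.66) against 19.2 to 42.5 CPM (median 33) in batch A, and 3.68, 3, 3.26 and 1.7 CPM against 23 to 66 CPM (median 31.2) in batch B. The populations were apart in both batches, with log2 fold changes of 3.02 ± 0.65 and 3.66 ± 0.77 (edgeR adjusted p 3.91e-04 and 3.90e-04). Without Sox2-negative library 4 the batch A value was 4.38, and the value over both batches went from 3.31 to 3.99.

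Ephb4, the ephrin-B2 receptor and the most abundant EphB gene per length in both populations, was not called between them: 53.6 to 84 CPM against 57.6 to 83 CPM in batch A (0.13 ± 0.16) and 87.1, 110.0, 80.7 and 105 CPM against 57.1 to 91.5 CPM in batch B (-0.31 ± 0.17). Ephb3 (0.80 ± 0.21) and the kinase-inactive Ephb6 (1.35 ± 0.33) were higher with the batches combined, and were called in batch A but not in batch B. Ephb2 was lower in batch B (-4.24 ± 0.71, edgeR adjusted p 2.64e-05), and its batch A value was -1.29 ± 0.62 (edgeR adjusted p 0.0868).

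Slit2 and Slit3, the tested secreted ligands of Robo receptors, were low in Sox2-positive cells. With the untested Slit1 included, their summed level per length was 23.8 ± 9.33 against 0.897 ± 0.416 CPM per kb in batch A and 24.8 ± 10.4 against 0.347 ± 0.257 in batch B. Slit3 was the more abundant per length, with an exon union of 6.067 kb against 25.43 kb for Slit2. It had 62.8 to 223 CPM (median 99.1) against 1.26 to 8.25 CPM (median 4.40) in batch A. In batch B it had 133, 83.4, 208 and 108 CPM against 0.718 to 5.05 CPM (median 1.21). Log2 fold changes were -4.71 ± 0.46 and -6.11 ± 0.49 (edgeR adjusted p 4.46e-09 and 1.19e-10), with no overlap.

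Slit2 had 79.9 to 161 CPM (median 109) against 0 to 12.2 CPM (median 1.78) in batch A, and 68.2, 39.3, 127 and 52.5 CPM against 0 to 0.718 CPM (median 0.424) in batch B. The populations were apart in both, at log2 fold changes of -4.89 ± 0.57 and -7.47 ± 0.70 (edgeR adjusted p 9.96e-08 and 2.22e-09). Without batch A Sox2-positive library 3, the highest of its group, the batch A value was -5.73 and the value over both batches went from -5.76 to -6.38.
The Slit2 window is shown beside the ephrin windows as that of a gene lower in Sox2-positive cells, at chr5:47982905-47983154, plus strand, RefSeq GRCm38.p6; capitals mark GC boxes (GGGCGG) and a TATA box (TATAAA), which 13.0% of all windows and 3.3% of member windows held.
Slit2: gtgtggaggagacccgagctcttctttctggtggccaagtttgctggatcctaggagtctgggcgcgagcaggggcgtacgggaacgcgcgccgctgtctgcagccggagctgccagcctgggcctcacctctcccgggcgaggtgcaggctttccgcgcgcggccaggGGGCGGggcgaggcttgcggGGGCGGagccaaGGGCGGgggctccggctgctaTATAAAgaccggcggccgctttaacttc

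Robo4, a Robo receptor of blood vessel endothelium (chr9:37401897-37415115, plus strand, GRCm38), had 40.0 to 92.3 CPM (median 72.2) in batch A Sox2-negative libraries and was at 0 in all 6 Sox2-positive ones, at least 118-fold lower against a floor of 3 counts per library (edgeR adjusted p 6.11e-11). In batch B it had 22.9, 15.5, 22 and 11.6 CPM in Sox2-negative libraries and was at 0 in 6 of 7 Sox2-positive ones, with 0.614 CPM in library 3. The log2 fold change there was -7.03 ± 0.60 (edgeR adjusted p 4.26e-09), or -9.48 without library 3, which is no bound because the group is then at 0. Endothelial markers moved the same way: 10 of 10 were lower in Sox2-positive cells, with summed levels of 1113 to 1560 CPM in Sox2-negative libraries of batch A, 302 CPM at the lowest in those of batch B, and 22.5 to 39.5 CPM in Sox2-positive ones. None of the 10 was at 0 in every Sox2-positive library of a batch, but Cdh5 and Emcn each had 1 count over all batch A Sox2-positive libraries. Egfl7 alone had 16.9 to 33.7 CPM in Sox2-positive libraries, which is most of those sums. The part of the endothelial markers in the Robo4 result was not tested.

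Robo1, the most abundant Robo gene per length in Sox2-positive cells, had 27.6 to 65.7 CPM against 36.3 to 68.5 CPM in batch A (log2 fold change 0.21 ± 0.24). In batch B it had 77.3, 60.0, 29.5 and 95 CPM against 29.1 to 38.4 CPM (-0.89 ± 0.25, edgeR adjusted p 0.00599), and the call was lost without Sox2-negative library 4 (-0.60, adjusted p 0.0793), without libraries 1 and 2 of both batch B populations (-0.81, 0.11) and with the replicate block (-0.72, 0.121; range over alternatives 7.46e-04 to 0.121). Robo2 was lower in both batches (-1.96 ± 0.64 and -3.75 ± 0.69).

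Netrins, secreted cues related to laminins, held 1 member in each direction. Ntn1, the classical netrin, had 1.92 to 7.58 CPM (median 4.50) in batch A Sox2-negative libraries and was at 0 in 4 of 6 Sox2-positive ones, with 0.179 CPM in library 2 and 4.03 CPM in library 4. In batch B it had 24.5, 11.6, 6.2 and 7.65 CPM, against 1 count in all 7 Sox2-positive libraries together. The ratio of the pooled batch B counts was 463, with an exact 95% counting interval of 82.6 to 18334, which covers counting error only. The batch A log2 fold change was -2.79 ± 0.95 (edgeR adjusted p 0.017) and -6.28 without Sox2-positive library 4, and over both batches -4.68 became -7.19. The batch A call was lost with batch A fitted alone (-2.79, adjusted p 0.0524) and without batch B libraries 1 and 2 of both populations (-2.72, 0.0621), over a range of 4.07e-06 to 0.0621.

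Ntng1, a lipid-anchored netrin-G that does not bind Dcc, was higher in Sox2-positive cells. It had 2.42 to 24.8 CPM (median 12.7) against 23.8 to 75.2 CPM (median 50.8) in batch A, and 14, 23.1, 10.8 and 9.86 CPM against 44.1 to 87.7 CPM (median 65.2) in batch B. Batch A groups overlapped narrowly and batch B groups were apart, at log2 fold changes of 1.76 ± 0.39 and 2.27 ± 0.45 (edgeR adjusted p 5.05e-04 and 1.83e-04). Ntn3, which had the highest netrin level per length in Sox2-negative cells, was not called (0.07 ± 0.25 over both batches), and its gene model shares exons with Tbc1d24, so the reads of this pair cannot be told apart. Ntn4 and Ntn5 were not called either.

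Unc5 receptors, which mediate repulsion by netrins, were lower in Sox2-positive cells in 3 of 4 genes. Unc5b, by far the most abundant per length (12.2 to 38.4 CPM per kb as group means), had 103 to 176 CPM (median 137) against 60.4 to 105 CPM (median 86.9) in batch A. In batch B it had 179, 242, 302 and 238 CPM against 68.1 to 88.2 CPM (median 73.6). The groups touched in batch A and were apart in batch B, with log2 fold changes of -0.73 ± 0.15 and -1.65 ± 0.16 (edgeR adjusted p 3.63e-04 and 5.46e-09).

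Unc5d had 1.58 to 12.3 CPM (median 5.93) in Sox2-negative libraries of batch A and 21.6, 15.2, 26.4 and 26.2 CPM in those of batch B, and a single count over all Sox2-positive libraries of each batch. Ratios of pooled counts were 190.4 (exact 95% counting interval 33.7 to 7569) and 758 (135 to 29974). The fitted log2 values, -6.82 and -8.67, moved to -8.00 and -9.82 without the 1 Sox2-positive library that held the count in each batch (A library 2, B library 4), and are then no bound. Unc5c was lower in both batches (-2.11 ± 0.52 and -3.65 ± 0.54). Unc5a, at no more than 6.6 CPM in any library, was called higher in batch A (2.94 ± 1.21, edgeR adjusted p 0.0455) and not in batch B (-1.27 ± 1.10).

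The size of the population difference itself differed between batches for 13 of the 65 members, 3 with a positive and 10 with a negative interaction (batch B minus batch A), against 7.04% of all genes (2.82% positive and 4.22% negative). The median interaction was -0.40 over the members and 0.02 over all genes. The firmest were Nrp1 (-4.23 ± 0.54, edgeR adjusted p 6.69e-06), Sema3e (-3.58 ± 0.52, 4.12e-05), Sema6d (1.78 ± 0.27, 7.66e-05) and Epha5 (-4.32 ± 0.73, 3.17e-04). Sema3e was -4.21 without batch A Sox2-negative library 1. Efna1 (1.18 ± 0.25), Epha2 (-1.17 ± 0.26), Unc5b (-0.92 ± 0.23), Epha7 (-1.10 ± 0.27) and Efnb1 (-1.09 ± 0.31) followed, with adjusted p from 0.00314 to 0.0295. Efna1, Epha2, Epha7 and Efnb1 lost this call without batch B libraries 1 and 2 of both populations (adjusted p 0.0764 to 0.153). Epha2, Efnb1 and Unc5b also lost it with the replicate block (adjusted p 0.0611, 0.0671 and 0.113). The Efnb1 interaction was also lost without any 1 of 4 libraries (batch A Sox2-positive 5 and batch B Sox2-negative 2, 3 or 4, adjusted p 0.0505 to 0.067).

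Some of these genes differed between batches within Sox2-negative cells. Between batches in Sox2-negative cells, 12 members were higher in batch B and 4 lower (background 11.2% of genes, 5.85% higher and 5.35% lower), with a median of 0.47 against -0.00 over all genes. Sema3e was higher in batch B there (3.88 ± 0.43, or 4.51 without batch A Sox2-negative library 1), as were Unc5b (0.80 ± 0.17) and Efnb1 (0.92 ± 0.23). Efna1 (-0.78 ± 0.19), Sema6d (-1.17 ± 0.20) and Robo4 (-1.96 ± 0.47) were lower. Without batch B libraries 1 and 2 of both populations, the Efna1 and Robo4 calls were lost (-0.60 with adjusted p 0.211, and -2.05 with adjusted p 0.0863). Over alternatives the adjusted p ranged from 5.27e-04 to 0.211 for Efna1 and from 1.43e-06 to 0.0863 for Robo4. The count of 12 fell to 7 without batch B Sox2-negative library 2 and to 6 with total-count scaling. The Robo4 difference came with endothelial markers, 9 of 10 of which were lower in batch B (for example Cdh5, 109 to 229 CPM in batch A and 34.3 to 54.5 CPM in batch B), and their part in it was not tested. Other marker lists moved between the same groups: 5 of 7 erythroid and 6 of 10 epithelial markers were higher in batch B and 5 of 10 leukocyte markers were lower. Summed levels were 175 to 278 and 419 to 455 CPM for epithelial markers and 1245 to 1441 and 284 to 374 CPM for leukocyte markers in batches A and B, and the part of these lists in the guidance gene differences was not tested. Nrp1 was also called lower (-1.06 ± 0.34, edgeR adjusted p 0.0429), and lost the call without any 1 of 11 libraries (adjusted p 0.0513 to 0.167) and without batch B libraries 1 and 2 (-0.61, 0.469).

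In Sox2-positive cells, 5 members were higher in batch B and 8 lower (background 10.4%, 4.85% higher and 5.54% lower), with a median of 0.17 against 0.00 over all genes. Nrp1 had the largest of these falls (-5.29 ± 0.42, edgeR adjusted p 6.26e-10), followed by Plxnb3 as given above. Ntn1 came next (-3.70 ± 1.21, edgeR adjusted p 0.0485), but was -0.22 without batch A Sox2-positive library 4 (adjusted p 0.966) and lost the call without any 1 of 17 libraries (adjusted p 0.0516 to 0.966) and without batch B libraries 1 and 2 (-4.73, 0.125). Slit2 (-3.23 ± 0.73, edgeR adjusted p 0.00329) was -2.34 without batch A Sox2-positive library 3 and lost the call with limma-voom (-2.18, 0.0881; range over alternatives 2.68e-04 to 0.0881). Epha5 was lower too (-2.85 ± 0.50, edgeR adjusted p 2.74e-04). Sema3b was lower by a log2 value of 1.64 in size (-1.64 ± 0.46, edgeR adjusted p 0.0195; -1.39 with adjusted p 0.0915 without batch B libraries 1 and 2, range over alternatives 4.35e-06 to 0.0915). Sema6d was higher (0.61 ± 0.18, edgeR adjusted p 0.0224). Its adjusted p was 0.0524 without Sox2-positive library 2 of batch B and 0.15 without libraries 1 and 2 of both populations there (range over alternatives 0.0062 to 0.15). Plxna1, Plxnb2 and Sema5a were higher as well, and were also called higher in batch B in Sox2-negative cells. Sema4g was called higher, and Ephb2 and Sema4c lower, in Sox2-positive cells. Markers of other cell types moved between the same groups: all 10 glial, 5 of 10 mesenchymal and all 4 tested ameloblast markers were lower in batch B Sox2-positive cells. Of 7 tested pericyte and smooth muscle markers, 4 were higher there (Abcc9, Acta2, Cspg4 and Tagln), with sums of 135 to 191 CPM in batch A and 495 to 537 CPM in batch B, and Acta2 at 18.4 to 38.9 and 177 to 217 CPM. Summed ameloblast markers were 289 to 349 CPM in batch A and 6.82 to 10.1 CPM in batch B, Col1a1 was 289.9 to 528 and 21.6 to 52 CPM, and Twist1 was at 0 in every Sox2-positive library. Their part in the guidance gene differences was not tested.

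**Figure D4:**
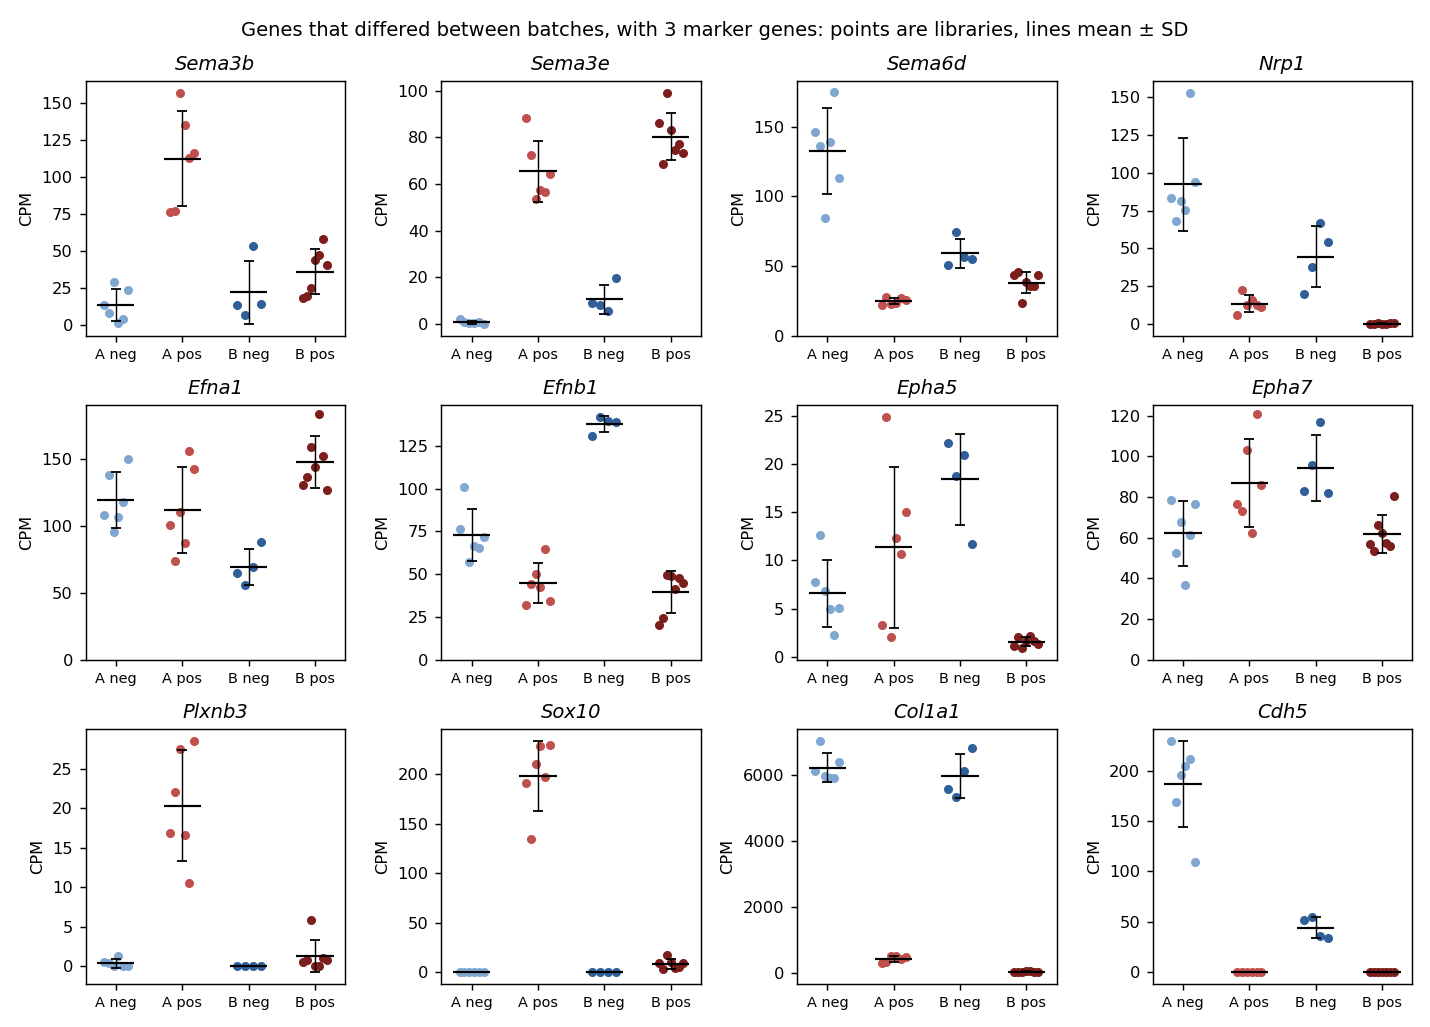
CPM of 9 guidance genes that differed between batches and of the glial marker Sox10, the mesenchymal marker Col1a1 and the endothelial marker Cdh5, per library with mean and SD. Nrp1, Plxnb3, Sox10 and Col1a1 are all lower in Sox2-positive libraries of batch B than of batch A, and Sema3e is higher in batch B Sox2-negative libraries.

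Interactions of Sema3b, Ntn1 and Robo4 rested on single libraries. Sema3b (-2.37 ± 0.71, edgeR adjusted p 0.0406) was -1.43 without batch B Sox2-negative library 3, with an adjusted p of 0.241 (range over alternatives 0.015 to 0.241), and its value over both batches went from 1.92 to 2.52. Ntn1 (-5.08 ± 1.52, edgeR adjusted p 0.0406) was -1.60 without batch A Sox2-positive library 4 (adjusted p 0.699, range over alternatives 0.0273 to 0.699). The Robo4 interaction (edgeR adjusted p 0.0498) compares 2 groups with 0 and 4 counts in total and had an adjusted p of 1 without batch B Sox2-positive library 3 (range over alternatives 0.0222 to 1). These 3 calls were lost without any 1 of 12, 12 and 18 of the 23 libraries, and without batch B libraries 1 and 2 (adjusted p 0.0535, 0.232 and 0.0684). Sema4c (-2.13 ± 0.66, edgeR adjusted p 0.0498) completed the 13.

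Other genes of the pathway, 50 co-receptors, further ligands and intracellular effectors listed with earlier results known, were called 14 higher and 17 lower of 46 tested over both batches, with a median of -0.17. Of all genes tested, 24.9% were higher and 32.5% lower, with a median of -0.12. The 2 highest were the L1-family adhesion molecules that act as semaphorin co-receptors. Chl1 reached at most 14.2 and 7.01 CPM in Sox2-negative libraries of batches A and B and had medians of 118 and 116 CPM in Sox2-positive ones (5.36 ± 0.53, edgeR adjusted p 2.36e-09). L1cam followed (2.49 ± 0.34, edgeR adjusted p 6.46e-07), with 18.1 to 47.8 CPM in Sox2-positive libraries of batch A and 3.63 to 6.46 CPM in those of batch B. Then came Mical2, an actin-oxidising effector of plexins (1.94 ± 0.19), Dpysl5, a collapsin response mediator (1.84 ± 0.73, with 0.17 ± 0.84 in batch B), and Rgmb, a neogenin ligand (1.42 ± 0.28).

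The lowest partner was Kdr, the endothelial receptor of Vegfa (-8.49 ± 0.46, edgeR adjusted p 1.36e-14), which is also in the endothelial marker list. Rnd1, a small GTPase that binds plexins (-4.38 ± 0.75), Draxin, a netrin antagonist (-3.29 ± 0.95), Fes, a kinase that binds plexin-A1 (-2.72 ± 0.37), and Vegfa itself (-2.45 ± 0.26) were also lower. By batch, Draxin was called in B only. Of the netrin receptors outside the Unc5 family, Dcc was too low to test, with 1.78 CPM in its highest library, while Neo1, which encodes neogenin, had medians of 107 and 76.9 CPM in batch A and 127 and 98.3 CPM in batch B (-0.47 ± 0.11 over both batches, edgeR adjusted p 6.30e-04).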

How the data were processed

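RNA from 23 sorted-cell libraries in 4 batch-by-population groups was measured. The deposited table holds the authors' expected counts (estimated counts per gene, not whole numbers), made with FastQC, Trimmomatic and Salmon on mm10 per the submitters' processing notes. Versions, annotation and strand setting are not given in the sources used here. Chromatin accessibility data of the series were not analysed here.

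Counts were rounded to whole numbers, filtered with filterByExpr over the 4 groups, scaled by TMM and fitted in edgeR 4.0.16 (R 4.3.3) with the quasi-likelihood F test, which is two-sided, with Benjamini-Hochberg adjustment over 17190 genes and calls at 0.05. Population over both batches used batch as a covariate; within-batch, interaction and between-batch contrasts came from 1 model of 4 group means. SE is the log2 fold change divided by the square root of F. Levels per length divide CPM by the exon union of GENCODE M21 on GRCm38, which all 70 members matched. The union can be longer than the transcript expressed, so ranks per length depend on the annotation. The floor of 3 counts and the exact counting intervals cover counting error only. On simulated counts the population test found 50% of genes changed by 1 log2 unit and 84.5% of those changed by 2 (16628 genes), and the interaction test 6.86% and 50% (16639 genes).

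The members, gene lists and markers were chosen with earlier results of these data known. Named with values per library were, in each family, the most abundant member per length in each population (mean of both batch means); the 10 highest and 10 lowest population fold changes among members called in both batches with a mean of at least 10 CPM in a group; the 8 firmest interactions; and the 5 highest and 5 lowest partner genes. Others are given by counts and fold changes. Promoter windows are the 250 bases before the first start that RefSeq lists on GRCm38.p6. Alternatives were DESeq2 1.42.0, limma-voom (limma 3.58.1), RLE and total-count scaling, 2 other filters, a replicate block, each batch or population alone, each library left out, and batch B libraries 1 and 2 left out.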

Additional observations from a re-analysis of the deposited data

Results flagged for a closer look

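In 7 of 130 group levels examined, 1 library lay far from the rest of its group by Dixon's test; chance does this in about 1 in 20 groups. They were Sema3b at 53.6 CPM in batch B Sox2-negative library 3, Sema3c at 24 CPM in batch A Sox2-negative library 3, Plxnb3 at 5.83 CPM in batch B Sox2-positive library 3, Nrp1 at 153 CPM in batch A Sox2-negative library 5, Epha3 at 11.2 CPM in batch B Sox2-positive library 3, Ephb1 at 15.7 CPM in batch A Sox2-negative library 4 and Slit3 at 5.05 CPM in batch B Sox2-positive library 1.

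The population difference differed between batches by the interaction test (edgeR, adjusted p under 0.05) in 13 members. On the log2 scale, batch B minus batch A, the interaction was -4.23 for Nrp1, -3.58 for Sema3e, -4.32 for Epha5, -1.17 for Epha2, -0.92 for Unc5b, -1.10 for Epha7, -1.09 for Efnb1, -5.08 for Ntn1, -2.37 for Sema3b and -2.13 for Sema4c. It was positive for Sema6d (1.78), Efna1 (1.18) and Robo4 (4.45), and the Robo4 value rests on a group with no counts, so its size depends on the prior count.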

How the results depend on the processing

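No result reversed in any alternative run. Of 121 single-gene results of 36 named members, 91 stayed called in every alternative. DESeq2 lost 0 of the 118 it could give, and leaving out batch B libraries 1 and 2 of both populations lost 24 of 121. That setting keeps only libraries 3 and 4 of the batch B Sox2-negative group, so part of the loss can come from the smaller group. Leaving out 1 library gave 22 to 24 members higher and 24 to 27 lower with the batches combined, 21 to 24 (19 to 23 lower) for batch A, 15 to 19 (22 to 26 lower) for batch B, 2 to 4 positive and 7 to 11 negative interactions, 7 to 13 higher and 3 to 4 lower between batches in Sox2-negative cells, and 5 to 7 and 7 to 9 in Sox2-positive cells. The counts between batches moved most. Positive interactions were 5 with DESeq2 (3 as reported), and negative ones 5 with the replicate block and 4 without batch B libraries 1 and 2 (10 as reported). In Sox2-negative cells, members higher in batch B were 5 in that population alone, 6 with total-count scaling and 6 without those libraries (12 as reported), and members lower were 2 without them (4 as reported). In Sox2-positive cells, members higher in batch B were 10 with limma-voom, 10 in that population alone and 3 without those libraries (5 as reported). The causes were not tested.

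With group means removed, same-numbered libraries of the 2 populations correlated at -0.0212 to 0.0444 over all genes. Of these, 1 of 10 correlated best with its own number. Spread between single libraries can hide a shared mouse or sort, so these values cannot tell whether the numbers pair the samples. The replicate block left 22 members higher (24 lower) with the batches combined, 23 (20 lower) for batch A and 13 (21 lower) for batch B. Batch B Sox2-positive libraries 5 to 7 have no same-numbered Sox2-negative library, so with the block they carry no weight in the population difference. Part of the loss in batch B can come from the smaller group. Over all genes, interactions numbered 1210 in the reported fit, 557 with the block and 481 without batch B libraries 1 and 2. Differences between batches numbered 1924 in Sox2-negative cells (933 in that population alone, 754 without those libraries) and 1785 in Sox2-positive cells (3014, 1159, and 3313 with limma-voom), and population differences in batch B 7319 (4445 without them). Total-count scaling moved the median of all genes from -0.12 to 0.00 over both batches, from -0.11 to 0.05 in batch B and from -0.00 to -0.15 between batches in Sox2-negative cells, where the share of calls higher went from 52.2% to 32.3%; in Sox2-positive cells that share went from 46.7% to 35.4%. Levels under 0.314 to 1.3 CPM, by library, were under 3 counts.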
